A study of Mus musculus with 6 samples.

Results

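The genes of nitric oxide (NO) synthesis and signalling were read in RNA-seq libraries of lung endothelial cells (ECs) from wild-type (WT) and leene-knockout (KO) mice. The set holds 10 of the 47729 genes counted, matched by gene symbol: the NO synthase genes Nos1, Nos2 and Nos3, the cofactor enzyme gene Gch1, Ddah1 and Ddah2, which clear an inhibitor of the synthases, Cav1, Nosip and Nostrin, whose products bind endothelial NO synthase (eNOS), and Gucy1b1, which encodes a subunit of the NO receptor. All mice were male and 14 weeks old, and all of them, WT included, had received angiotensin II (AngII) from an osmotic pump at 1000 ng/kg/min for 2 weeks, so no library came from an untreated animal. There were 3 WT and 3 KO libraries of polyA RNA. The KO mice, on a C57BL6 background, lack in every cell the region of chromosome 14 that is syntenic to human LEENE/LINC00520 and holds the long noncoding RNA genes Gm41148 (the putative leene), Gm49302 and Gm35360. By qPCR of heart and aorta, the study found Gm41148 drastically lower in KO, but no significant difference for Gm49302 and Gm35360. The long noncoding RNA genes of this region are outside the annotation used for counting and were not analysed here, so the genotype of each library is that of its label.

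NO is made from L-arginine by the synthases, which need tetrahydrobiopterin (BH4) as a cofactor. In ECs eNOS, the product of Nos3, is held at caveolae by caveolin-1, is switched on by calcium signals, HSP90 and phosphorylation, and is blocked by methylated arginine (ADMA). NO that reaches smooth muscle activates soluble guanylate cyclase, and the cyclic GMP formed relaxes the vessel, which is why the pathway is studied in hypertension.

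The start of the coding sequence shows how the synthases differ where eNOS is anchored to membranes. The first 30 codons, in the GENCODE transcripts of GRCm38, are shown for the 3 synthase genes. Capitals mark codons 2, 15 and 26 of Nos3, for the glycine that is myristoylated and the cysteines that are palmitoylated.
Nos3-201: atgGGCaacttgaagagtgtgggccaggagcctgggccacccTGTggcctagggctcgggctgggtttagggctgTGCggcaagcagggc
Nos2-201: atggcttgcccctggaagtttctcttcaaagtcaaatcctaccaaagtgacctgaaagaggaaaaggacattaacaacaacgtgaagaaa
Nos1-202: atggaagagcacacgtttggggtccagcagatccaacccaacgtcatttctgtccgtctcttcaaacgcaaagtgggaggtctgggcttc
At these positions Nos2 has GCT, CAA and AAC and Nos1 has GAA, GTC and GGA, none of which encodes glycine at codon 2 or cysteine at codons 15 and 26. The transcript with the longest coding sequence was taken for each gene, so other transcripts may be shorter. These coding sequences run to 1202 codons in Nos3, 1144 in Nos2 and 1463 in Nos1, without the stop codon.

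The deposited values are reads counted per gene, between 24464324 and 35184063 per library in WT and between 26159650 and 29189294 in KO. Values below are counts scaled to library size (CPM, with library sizes from edgeR's TMM method), and fold changes are KO relative to WT on the log2 scale from edgeR's quasi-likelihood test, with p-values adjusted by the Benjamini-Hochberg method over the 14625 genes that passed the filter on low counts. The labels describe CD31-enriched cells pooled from 3 mice per group and the study's methods a sort for CD144, and it was not settled whether a library is 1 mouse or a pool. The p-values therefore measure the spread between libraries, which may be in part technical. The 13 endothelial markers, Pecam1 (CD31) and Cdh5 (CD144) among them, were present in every library, at 2386 to 4082 CPM summed in WT and 2556 to 4064 CPM in KO. Other lung cells were present too. The summed level of 7 alveolar type II markers was 5418, 50642 and 15623 CPM in WT replicates 1, 2 and 3 and between 39317 and 48623 CPM in KO, so that WT replicate 2 stood with the KO libraries on this measure.

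Of the 10 genes, 9 passed the filter and 0 were called at an adjusted p under 0.05, where 0.109% of all genes tested were called. At an unadjusted p under 0.05 there were 3 of the 9, Nos3 and Gch1 lower and Nos2 higher in KO, against 10.3% of all genes. Those lower were 2 of 9, against 4.68% of all genes lower at that threshold, and 1 of 9 was higher, against 5.62%. The same 3 genes had KO and WT libraries that did not overlap, against 17.8% of all genes, with 9.2% below and 8.59% above WT. DESeq2, the tool the study names, called 1 of the 9, Nos3, where it called 1.21% of the genes it tested and 0.64% as lower. The quasi-likelihood test also called Nos3 on total counts without TMM (0.841% of all genes called) and without the filter on low counts (0.582%). With libraries scaled to equal levels of the endothelial markers, 1 of the 9 had an unadjusted p under 0.05, against 3.82% of all genes. The median log2 fold change of the 9 genes was -0.06, and that of all genes 0.03.

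**Figure D1:**
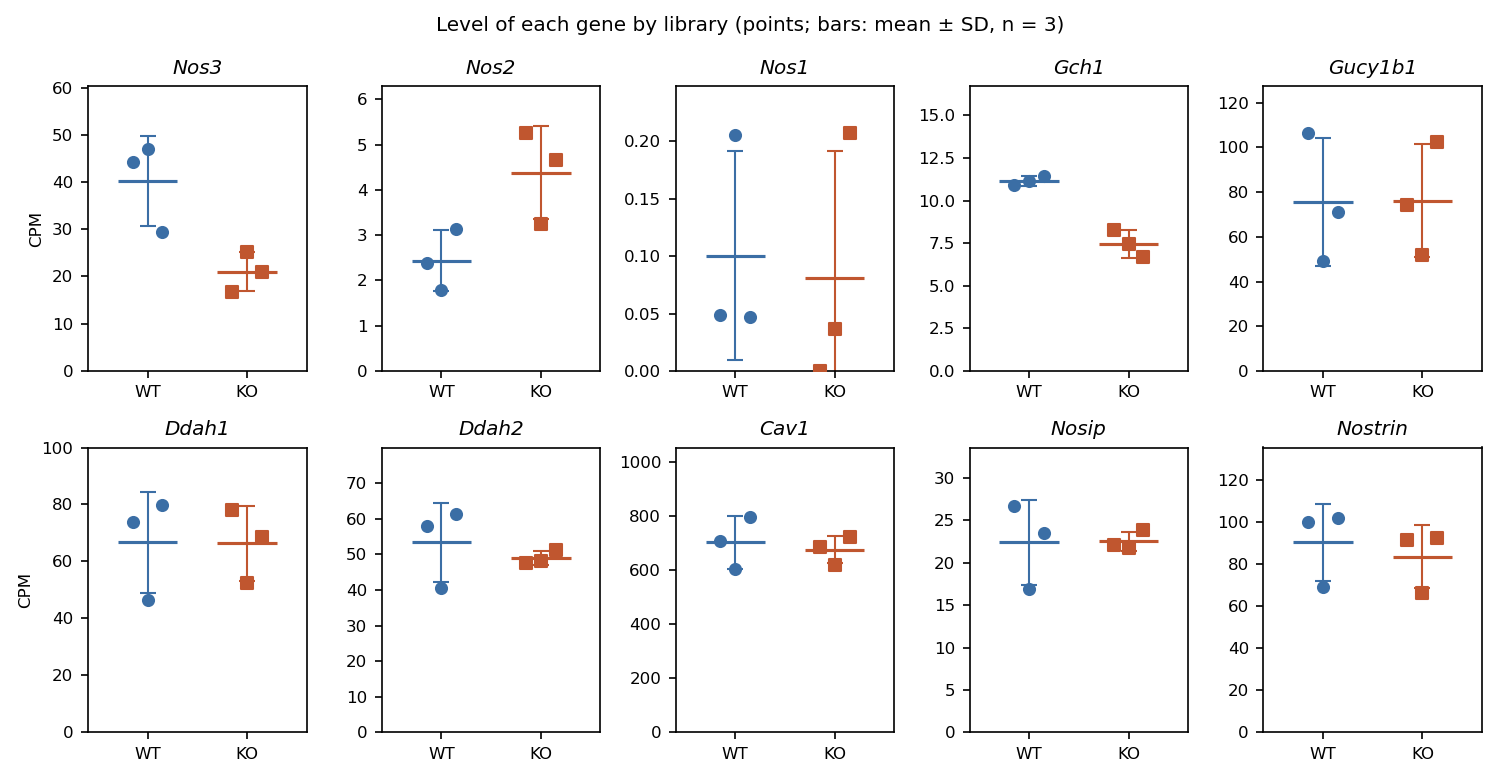
Level of each of the 10 genes in CPM (vertical axis, from 0, a different range in each panel) in the 3 WT (circles) and 3 KO (squares) libraries; the horizontal bar is the mean and the error bar the SD. Nos3 and Gch1 lie lower in every KO library than in any WT library, Nos2 lies higher, and the other 7 genes overlap between the groups.

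Nos3 (chr5:24364810-24384474, plus strand, GRCm38), the eNOS gene, was lower in all KO libraries than in any WT library. WT replicates 1, 2 and 3 had 44.3, 47.0 and 29.4 CPM, against 16.8, 25.2 and 21.0 CPM in KO replicates 1, 2 and 3. WT replicates 1 and 2 stood well above the rest, while WT replicate 3 lay closer to KO replicate 2 than to the other WT libraries. The mean was 40.2 ± 9.49 CPM (SD, n = 3) for WT against 21.0 ± 4.20 CPM (SD, n = 3) for KO, and the KO level was 52.2% of the WT level in the fit. The log2 fold change was -0.94 (standard error 0.22, 95% interval -1.45 to -0.42), with an unadjusted p of 0.00314 and an adjusted p of 0.274 (edgeR's quasi-likelihood test with p-values adjusted by Benjamini-Hochberg), so Nos3 did not pass. DESeq2 gave -0.97 with an adjusted p of 0.0240. The interval lies below 0, and leaving out each library in turn kept the log2 fold change between -1.14 and -0.82.

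Inducible NO synthase is encoded by Nos2 (chr11:78920787-78960254, plus strand), which is best known from activated macrophages. Its level was low, at 2.37, 1.79 and 3.14 CPM in WT and 5.24, 3.24 and 4.66 CPM in KO, which corresponds to 61 to 97 counts per library in WT and 88 to 135 counts in KO. No WT library reached the KO libraries, but KO replicate 2 exceeded WT replicate 3 only narrowly. The log2 fold change was 0.86 (standard error 0.29, 95% interval 0.17 to 1.54, adjusted p = 0.411, quasi-likelihood test with Benjamini-Hochberg adjustment) and did not pass. Macrophage markers overlapped between the groups, with 0 of 7 at an unadjusted p under 0.05 and a summed level of 118 to 332 CPM in WT and 164 to 414 CPM in KO; their part in the Nos2 values was not tested. WT replicate 2, with alveolar type II markers above those of the KO libraries, had the lowest Nos2 level of the 6 libraries. WT replicate 1, with the lowest alveolar type II markers, had the next lowest Nos2 level. The part of alveolar type II cells in the Nos2 values was not tested.

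Taken per length, Nos2 was at 5.02%, 3.57% and 10.01% of the Nos3 level in WT replicates 1, 2 and 3 and at 29.2%, 12.0% and 20.7% in KO replicates 1, 2 and 3. Nos3 thus remained the more abundant synthase transcript in all 6 libraries, by the least in KO replicate 1, where Nos3 was lowest and Nos2 highest.

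Nos1 (chr5:117781032-117958840, plus strand), the neuronal synthase gene, was close to absent. WT replicates 1, 2 and 3 had 2, 7 and 1 counts and KO replicates 1, 2 and 3 had 0, 1 and 6, with sums of 10 (95% Poisson interval 4.80 to 18.4) and 7 (2.81 to 14.4) that cover counting error only. The intervals overlap, the gene did not pass the filter and was not tested, and a difference between genotypes was not detectable at this depth. In KO replicate 1, the 0 counts allow a level of up to 0.129 CPM.

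Gch1 (chr14:47153895-47189413, minus strand) encodes GTP cyclohydrolase 1, the first and rate-limiting enzyme of BH4 synthesis. Its level was 10.9, 11.1 and 11.4 CPM in WT and 8.25, 7.43 and 6.66 CPM in KO. The WT libraries were nearly equal, all 3 KO libraries were lower, and the groups were apart by more than the spread within either. The means were 11.1 ± 0.267 CPM (SD, n = 3) and 7.45 ± 0.797 CPM (SD, n = 3), and the KO level was 66.8% of WT. The log2 fold change of -0.58 (standard error 0.15, 95% interval -0.92 to -0.24) had an unadjusted p of 0.0045 and did not pass (adjusted p = 0.287, quasi-likelihood test with Benjamini-Hochberg adjustment, DESeq2 adjusted p = 0.142). Gch1 lies on the chromosome of the deletion, 602 kb from Gm41148 (chr14:47790968-47805349); whether this position bears on its level was not tested.

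The promoter of Gch1, 1 of the genes whose groups did not overlap, is shown with CACCC elements marked, the letters that Krüppel-like factors such as Klf2 and Klf4 are known to bind. Whether these factors bear on the level of Gch1 was not tested. The window from 250 bases before to 50 bases after the start site, chr14:47189364-47189663 on the minus strand (RefSeq, GRCm38.p6), holds CACCC, read on both strands as CACCC or GGGTG, 1 time, at position -127 (capitals).
Gch1 promoter: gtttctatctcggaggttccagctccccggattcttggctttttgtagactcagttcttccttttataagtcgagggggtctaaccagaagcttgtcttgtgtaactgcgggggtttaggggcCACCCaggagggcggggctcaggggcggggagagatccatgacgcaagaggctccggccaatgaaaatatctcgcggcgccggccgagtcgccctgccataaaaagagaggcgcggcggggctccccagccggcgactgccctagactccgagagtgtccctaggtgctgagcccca
Such a match is common, being found in 57.5% of 32851 promoter windows of this length. Promoter windows were matched for 8 of the 10 genes, with 2 for Cav1; there was no entry for Nos3 and Nos2. Ddah2 and Nostrin had 1 match each, Nosip had 2 and 1 of the windows of Cav1 had 1, whereas Gucy1b1, Ddah1 and Nos1 had 0.

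Both genes of ADMA clearance encode dimethylarginine dimethylaminohydrolases, which break down the methylated arginine that inhibits the synthases. Ddah1 (chr3:145758675-145894277, plus strand) was at 73.8, 46.5 and 79.7 CPM in WT and 77.96, 52.3 and 68.7 CPM in KO. Ddah2 (chr17:35059035-35062095, plus strand) was at 58.0, 40.6 and 61.4 CPM in WT and 47.6, 48.2 and 51.3 CPM in KO. For both, WT replicate 2 was the lowest library and the groups overlapped. The log2 fold changes were -0.01 (95% interval -0.56 to 0.54) for Ddah1 and -0.12 (95% interval -0.52 to 0.28) for Ddah2, so a change of Ddah1 as large as that fitted for Nos3 lies outside its interval.

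The eNOS binding partners did not separate by genotype. Cav1 (chr6:17306335-17341452, plus strand), whose product caveolin-1 builds caveolae and inhibits eNOS, was at 708, 604 and 797 CPM in WT and 685, 621 and 722 CPM in KO. Nostrin (chr2:69135800-69189330, plus strand) encodes a trafficking protein that draws eNOS away from the plasma membrane, and was at 100.05, 69.3 and 102 CPM in WT and 91.8, 66.5 and 92.7 CPM in KO. Nosip (chr7:45062429-45078503, plus strand), which encodes the eNOS-interacting protein, was at 26.7, 16.9 and 23.5 CPM in WT and 22.1, 21.7 and 23.8 CPM in KO. The WT range enclosed all 3 KO libraries for Cav1 and Nosip and 2 of 3 for Nostrin. Log2 fold changes were -0.06 for Cav1 (95% interval -0.53 to 0.42), -0.11 for Nostrin (-0.59 to 0.36) and 0.01 for Nosip (-0.40 to 0.43). The sign for Nosip turned under DESeq2 (-0.02) and other scalings, so no direction can be read for it.

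Gucy1b1 (chr3:82032006-82074689, minus strand) encodes the haem-binding beta subunit of soluble guanylate cyclase, which is best known from smooth muscle and pericytes, next to its partner gene Gucy1a1 on the same strand. It was at 106, 49.4 and 71.1 CPM in WT and 74.1, 51.9 and 102 CPM in KO. The log2 fold change of 0.01 has a 95% interval from -0.75 to 0.77, so the value fitted for Gch1 lies inside it, and its sign turned under DESeq2 (-0.03). The partner gene Gucy1a1 followed it from library to library, at 163, 94.0 and 105 CPM in WT and 117, 75.7 and 173 CPM in KO. Per length, Gucy1b1 was at 1.16, 0.933 and 1.196 times Gucy1a1 in WT and 1.12, 1.22 and 1.05 times in KO.

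**Figure D2:**
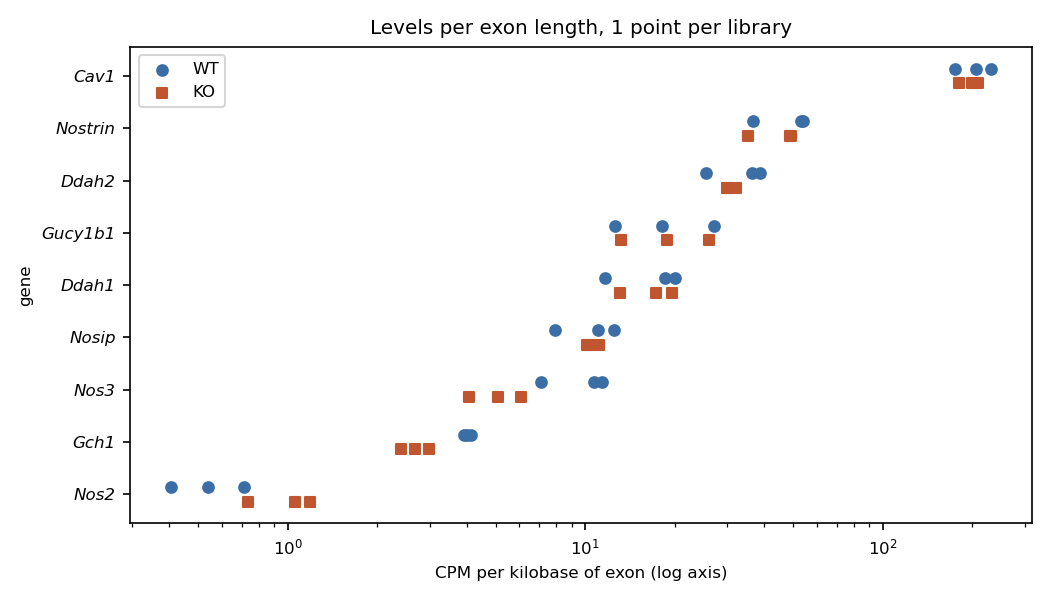
Level of 9 of the genes in CPM per kilobase of exon (horizontal axis, logarithmic), 1 point per library, WT as circles and KO as squares, ordered by their mean over the 6 libraries. Cav1 lies above all others and Nos2 below; Nos1, which was close to absent, is left out.

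The genes differed far more from each other than between genotypes. In CPM per kilobase of exon, the mean over the 6 libraries was 200.2 for Cav1, 46.1 for Nostrin, 32.1 for Ddah2, 19.3 for Gucy1b1, 16.7 for Ddah1, 10.5 for Nosip, 7.41 for Nos3, 3.35 for Gch1, 0.772 for Nos2 and 0.00815 for Nos1. The lowest library of Cav1, of Gch1 and of Nos2 was above the highest library of the next gene in this order, whereas the ranges of the other neighbours overlapped. Within a library, Gucy1b1 was above Ddah1 in 4 of 6 libraries and Nosip above Nos3 in 5 of 6, with WT replicate 2 as the exception, and the other neighbours kept their order in all 6.

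Bulk libraries cannot tell fewer cells of a type from less RNA of a gene per cell. As a description, 8 of the genes were also set against the 13 endothelial markers within each library. Such a ratio moves with the markers as well as with the gene, so it does not settle this question. It fits Gucy1b1 least, a gene best known from smooth muscle and pericytes. The log2 ratio of Nos3 to the mean of these markers was -1.41, -1.56 and -2.89 in WT and -3.63, -2.43 and -3.09 in KO. By this measure the groups overlapped, because WT replicate 3, which had the highest endothelial marker sum, lay below KO replicate 2. The difference of means was -1.10 (two-sided exact permutation p = 0.2, adjusted p = 0.8 over 8 ratios), in a design of 3 against 3 whose smallest possible p is 0.1. For Gch1 the difference was -0.76 (exact permutation p = 0.2, adjusted p = 0.8), again with overlap. The other 6 genes differed by -0.28 to -0.14, all with overlap. Markers of other cells also differed between the groups, where 4.68% of all genes were lower and 5.62% higher at an unadjusted p under 0.05 and 0.109% were called. Smooth muscle markers summed to 132 to 163 CPM in WT and 76.2 to 102 CPM in KO, with 2 of 4 lower at that threshold and 0 called. B cell markers summed to 5.34 to 15.1 CPM in WT and 52.3 to 57.6 CPM in KO, with 4 of 4 higher at that threshold and 2 called. Platelet markers (26.2 to 40.2 CPM in WT and 37.4 to 72.3 CPM in KO) were higher at that threshold for 4 of 4 and T cell markers (1.1995 to 3.29 CPM and 3.66 to 6.19 CPM) for 2 of 4, with 0 called. None of these lists had a marker at 0 in all libraries, and their part in the values of the NO genes was not tested.

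**Figure D3:**
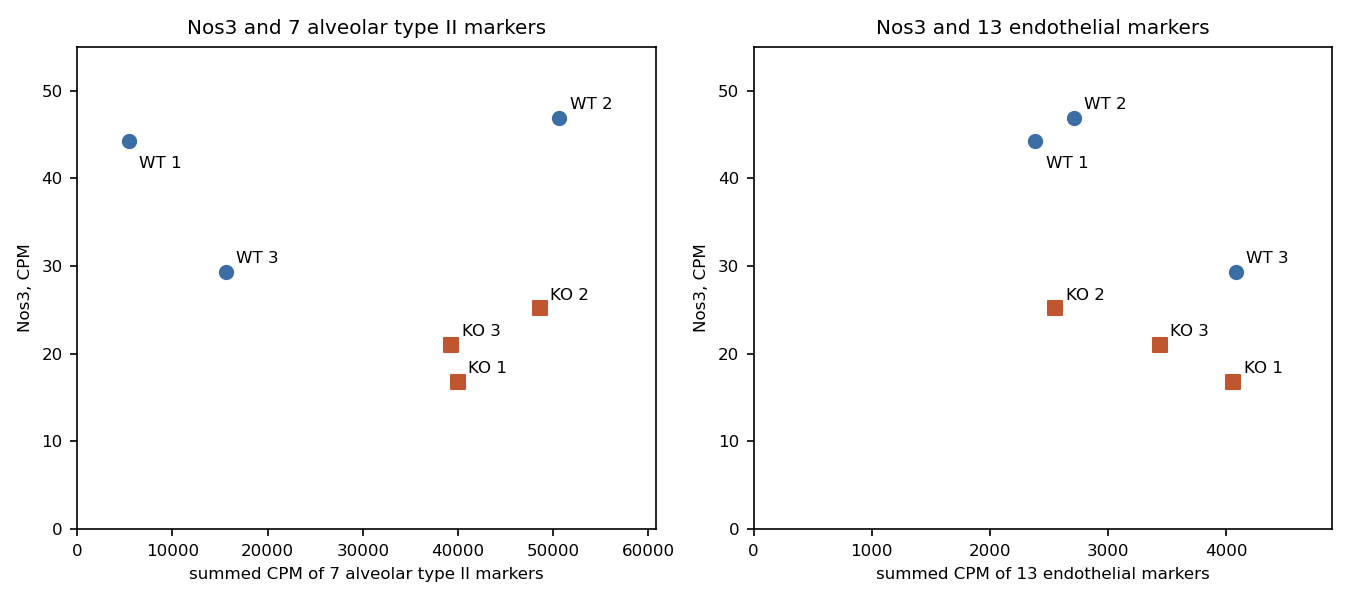
Nos3 level (vertical axis, CPM) of each library against the summed CPM of 7 alveolar type II markers (left) and 13 endothelial markers (right), WT as circles and KO as squares. WT 2 has the highest alveolar type II sum and the highest Nos3 level, and WT 3 and KO 1 have similar endothelial sums with 29.4 and 16.8 CPM of Nos3. WT 1 has the lowest sum in both panels, with 44.3 CPM of Nos3. The part of either cell type in the Nos3 level was not tested.

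The genes whose log2 CPM followed Nos3 most closely over the 6 libraries, among 8008 tested genes with a mean log2 CPM above 3, were Senp5 (Pearson's r = 0.993), which encodes a SUMO protease, Cct4 (0.990), which encodes a subunit of the cytosolic chaperonin, Prkar1b (0.985), Fam107a (0.980) and Sdf2l1 (0.978). Fam107a had the widest range of these, at 41.0, 60.8 and 28.8 CPM in WT and 9.80, 16.1 and 14.1 CPM in KO, and like Nos3 it was highest in WT replicate 2. Of the NO genes, Gch1 had an r of 0.75 with Nos3 and Nos2 an r of -0.97, while the others lay between -0.42 and -0.03. These values describe 6 libraries that share a split by genotype. That split alone moves r up for genes that are lower in KO, as Nos3 is, and down for genes that are higher.

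The rest of the pathway was read from a list of 65 other genes, of which 64 were matched, 60 were tested and 0 were called at an adjusted p under 0.05. The list was chosen with earlier results of these data known. Its shares, and those of its roles below, are therefore a description and cannot serve as a test of the pathway. At an unadjusted p under 0.05 there were 11 of the 60 (18.3%, against 10.3% of all genes), 2 higher and 9 lower in KO. The groups did not overlap for 15 of the 60 genes, against 17.8% of all genes; 3 were higher, against 8.59%, and 12 lower, against 9.2%. The median log2 fold change was -0.07, against 0.03 for all genes. DESeq2 called 6, all of them lower in KO, where it called 0.64% of all genes as lower. Without WT replicate 2 the quasi-likelihood test called 7 genes of the list, where it then called 5.29% of all genes. Calls numbered 2 under limma-voom, 1 under RLE scaling (0.178% of all genes in each case) and 2 under scaling to endothelial markers (0.301%).

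**Figure D4:**
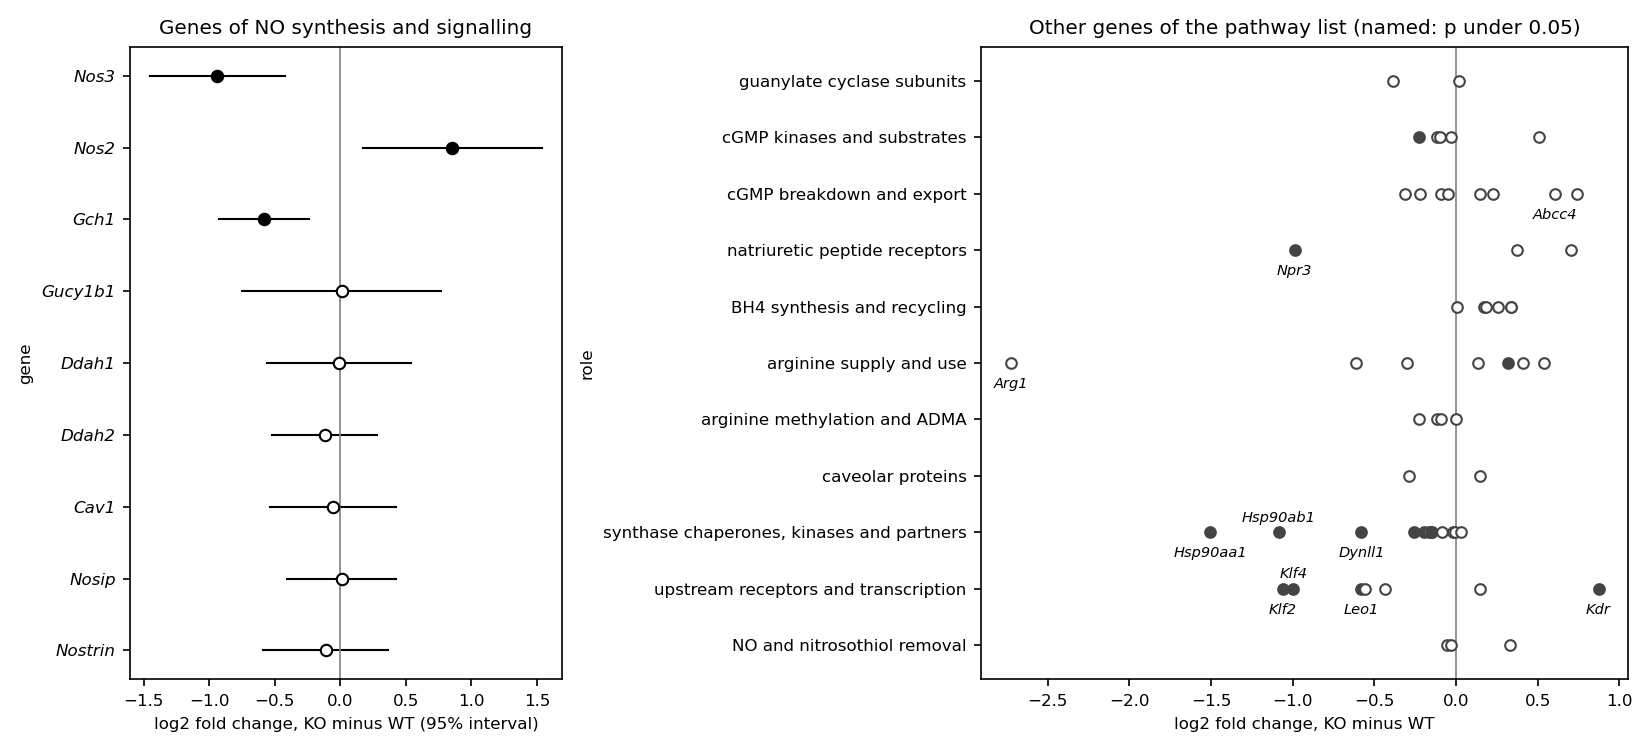
Log2 fold change of KO against WT (horizontal axes) for the 9 tested genes of the set with 95% intervals (left) and for other pathway genes by role without intervals (right). Filled points mark genes whose groups do not overlap, and names on the right mark an unadjusted p under 0.05. The named genes that are lower in KO lie mostly among the chaperones, kinases and partners and among the upstream factors.

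Of 7 genes for receptors and transcription upstream of Nos3, 5 had a lower fitted value in KO, and 3 of them (Klf2, Klf4 and Leo1) an unadjusted p under 0.05, where 4.68% of all genes were lower at that threshold. The receptor genes Bdkrb2 and S1pr1, named after their values were seen, were the other 2, with log2 fold changes of -0.56 and -0.44 and overlapping groups. Klf2, which activates the eNOS gene under laminar flow, was at 292, 266 and 255 CPM in WT and 121, 124 and 145 CPM in KO (log2 fold change -1.06, standard error 0.16, adjusted p = 0.0852, quasi-likelihood test with Benjamini-Hochberg adjustment, DESeq2 adjusted p = 8.37e-08). Klf4, a related factor, was at 224, 221 and 215 CPM in WT and 120, 103 and 108 CPM in KO (log2 fold change -0.996, standard error 0.14, adjusted p = 0.0721, same test, DESeq2 adjusted p = 1.82e-08). In both, the WT libraries were close to each other and far above the KO libraries, unlike Nos3, whose WT libraries were spread. Leo1, a subunit of the PAF1 complex of transcription elongation, was at 15.8, 14.2 and 18.5 CPM in WT and 9.71, 12.2 and 10.3 CPM in KO (log2 fold change -0.58, adjusted p = 0.327, same test). Kdr, the VEGF receptor gene whose product signals to eNOS, had the opposite sign, at 93.3, 108 and 138 CPM in WT and 264, 161 and 195 CPM in KO (log2 fold change 0.87, standard error 0.24, adjusted p = 0.313, same test, DESeq2 adjusted p = 0.0541). Its unadjusted p was 0.0064, where 5.62% of all genes were higher in KO at p under 0.05. All KO libraries of Kdr were above all WT libraries, as for 8.59% of all genes. Klf2 had the highest level per length of these 7 genes.

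Among 13 genes for chaperones, kinases and other partners of the synthases, 12 had a lower fitted value in KO and 4 of them an unadjusted p under 0.05, where 4.68% of all genes were lower at that threshold. Some of the 12 were near 0, such as Nos1ap (-0.006) and Calm2 (-0.02), named after their values were seen, and show no direction. Hsp90aa1, which encodes the stress-inducible HSP90, was at 93.5, 90.3 and 131 CPM in WT and 41.1, 40.5 and 29.3 CPM in KO (log2 fold change -1.505, standard error 0.21, adjusted p = 0.0581, quasi-likelihood test with Benjamini-Hochberg adjustment, DESeq2 adjusted p = 8.44e-08). Hsp90ab1, the constitutive form and the gene with the highest level per length of this role, was at 1555, 1138 and 1724 CPM in WT and 677, 737 and 669.8 CPM in KO (log2 fold change -1.08, adjusted p = 0.259, same test). HSP90 genes have processed pseudogenes, and reads that aligned to several places were not counted, so their levels are uncertain. Dynll1, which encodes a dynein light chain known to bind neuronal NO synthase, was at 87.1, 78.6 and 85.5 CPM in WT and 50.7, 59.2 and 58.1 CPM in KO (log2 fold change -0.58, adjusted p = 0.25, same test). The groups did not overlap for any of these 3 genes, where 9.2% of all genes had KO below WT without overlap. The 3 were named for their low unadjusted p, which favours such a separation. None passed the quasi-likelihood test with TMM scaling and the filter. DESeq2 called all 3, with adjusted p = 4.5e-05 for Hsp90ab1 and 0.0290 for Dynll1, where it called 0.64% of the genes it tested as lower. Hsp90aa1 was near the threshold and passed it under limma-voom (adjusted p = 0.0499), RLE scaling (0.0496), total-count scaling (0.000244), scaling to endothelial markers (0.0304) and no filter (8.39e-05), but not without mitochondrial genes (0.0503), with at least 10 counts in every library (0.0619) or under the replicate block (0.242). The enzymes that put palmitate on the cysteines marked in the Nos3 sequence and take it off, chosen here for that role after their values were seen, had log2 fold changes of 0.03 for Zdhhc21 and -0.20 for Lypla1.

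Beyond Gch1, the 6 other BH4 genes all had fitted values above 0 (median 0.22 on the log2 scale), and 0 of them reached an unadjusted p under 0.05. Spr, named after its values were seen, was near 0 (0.009, and -0.02 under DESeq2), so no shared direction can be read. Qdpr, which recycles BH4 and had the highest level per length of this role, was at 29.3, 24.4 and 33.9 CPM in WT and 38.7, 29.9 and 36.1 CPM in KO, with overlap. Gchfr, which encodes the protein that binds GTP cyclohydrolase 1 and sets its feedback control, was singled out after its values were seen; it was at 1.27, 1.26 and 1.26 CPM in WT and 1.55, 1.84 and 1.41 CPM in KO, with all KO libraries higher than all WT libraries and 27 to 52 counts per library (log2 fold change 0.34, 95% interval -0.35 to 1.03).

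Among genes of arginine supply and use, Arg1, whose arginase competes with the synthases for arginine, had the largest fold change but rested on 1 library. It was at 0.196, 6.31 and 0.796 CPM in WT and 0.387, 0.405 and 0.310 CPM in KO, so that WT replicate 2 alone was high and the groups overlapped. The fitted log2 difference of -2.73 (standard error 1.14, adjusted p = 0.477, quasi-likelihood test with Benjamini-Hochberg adjustment) became -0.38 without WT replicate 2. Of the arginine methylation genes, 0 of 4 tested reached an unadjusted p under 0.05, with Prmt1 at the highest level per length. All 4 fitted values were below 0, but that of Prmt3, named after its value was seen, was -0.0004. No shared direction can be read from them.

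On the receptor side, 0 of 2 tested guanylate cyclase partners and 0 of 5 cyclic GMP kinases and substrates reached an unadjusted p under 0.05. Of 8 genes of cyclic GMP breakdown and export, Abcc4, which encodes an exporter, was the only one to do so, at 7.78 to 12.9 CPM in WT and 11.04 to 19.4 CPM in KO with overlap (log2 fold change 0.61, adjusted p = 0.484, same test). Npr3, the clearance receptor gene for natriuretic peptides, whose other receptors also make cyclic GMP, was lower in every KO library, at 202, 170.0 and 275 CPM in WT and 122, 75.3 and 129 CPM in KO. It differed by -0.99 on the log2 scale (standard error 0.26, adjusted p = 0.307, quasi-likelihood test with Benjamini-Hochberg adjustment, DESeq2 adjusted p = 0.0231). The 2 tested caveolar genes of the list, with Cavin1 at the highest level per length, and the 3 genes of NO removal overlapped between genotypes, as Cav1 did.

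**Figure D5:**
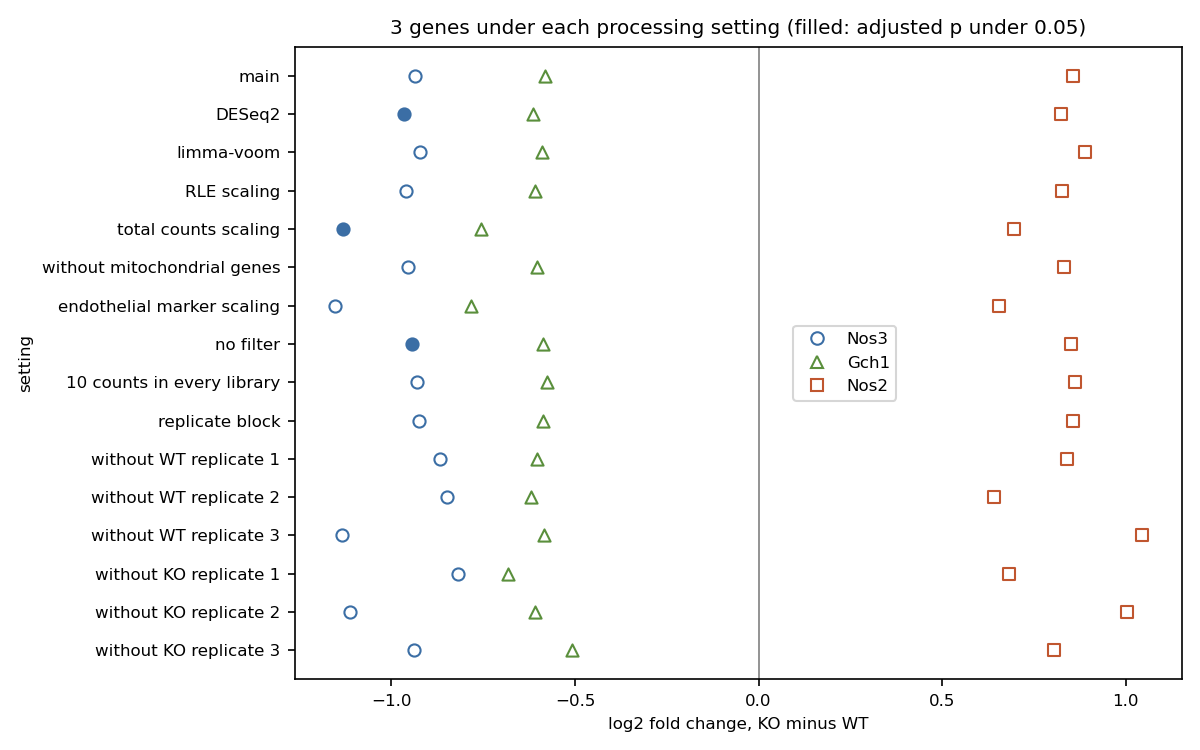
Log2 fold change of KO against WT (horizontal axis) for Nos3 (blue circles), Gch1 (green triangles) and Nos2 (orange squares) under each processing setting (vertical axis); filled points have an adjusted p under 0.05. No setting turned the sign of any of the 3 genes, and Nos3 was called under DESeq2, total-count scaling and no filter, whereas Gch1 and Nos2 were called under none.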

How the data were processed

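The authors deposited whole-number read counts per gene, 1 table per library, and no normalized value was used. Per the file headers, featureCounts 2.0.0 counted uniquely aligned reads over exons of the Ensembl release 84 annotation (GRCm38) on the strand given by the stranded library kit, so antisense genes are told apart. Reads with more than a single alignment or a single overlapping gene were left uncounted. The submitters' processing notes name bcl2fastq 2.18, STAR 2.5.4b and mm10. None of the 10 genes shares exon bases with another gene on its strand.

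Symbols for 47224 of 47729 genes came from GENCODE annotation of the same build. The sample titles gave each library its genotype and replicate number. In R 4.3.3, edgeR 4.0.16 was used with filterByExpr, TMM, glmQLFit and glmQLFTest with genotype as the only term and default options. The standard error is the absolute log2 fold change divided by the square root of F. Log2 CPM used a prior count of 2 for ratios to markers and correlations, and those ratios were compared with two-sided exact permutation tests. The biological coefficient of variation was 0.256. Total counts were 24464324 to 35184063 per library, mitochondrial genes took 37.4% to 54.5% of them, and no pair of libraries was alike within sampling noise (the lowest chi-square divided by its degrees of freedom was 37.0). Poisson intervals are exact, and the limit for 0 counts is 3 counts.

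The alternatives were DESeq2 1.42.0, limma-voom (limma 3.58.1), RLE and total-count scaling, scaling without mitochondrial genes, scaling to 13 endothelial markers, no filter, at least 10 counts in every library, the replicate number as a block and each library left out in turn. The fits were first tested on simulated data. The genes of the set, the pathway and marker lists and the tests were chosen with earlier results of these data known. Named are the genes of the set, pathway genes with an unadjusted p under 0.05, the gene of each role with the highest level per length, and the 5 genes most like Nos3; exceptions are stated. A result for a pathway gene that this rule would name is not reported here.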

Additional observations from a re-analysis of the deposited data

How the results depend on the processing

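The log2 fold change of Nos3 was negative under every alternative, between -1.15 and -0.82, and it was called under DESeq2 (-0.97, adjusted p = 0.0240), total-count scaling (-1.13, adjusted p = 0.0418) and no filter (-0.94, adjusted p = 0.0191), where 1.21%, 0.841% and 0.582% of all genes were called; each made 1 call among the 10 genes, and the cause was not tested. Total-count scaling moved the median of all genes to -0.13 and scaling to endothelial markers to -0.16, from 0.03. Under the latter Nos3 was at -1.15 (adjusted p = 0.532), 1 of the 10 genes and 6 of the pathway list had an unadjusted p under 0.05 (3.82% of all genes), and 2 of the list were called. Called pathway genes numbered 6 under DESeq2, 2 under limma-voom, 1 under RLE, 2 under total-count scaling and 3 under no filter, and ran from 0 to 7 when each library was left out, with 7 without WT replicate 2. Among the 10 genes, leaving out a library gave 0 calls each time. Over all genes, these fits also called 0 without KO replicate 1, 2 or 3, so the 0 there says nothing about the set. They called 24 of 14958 genes without WT replicate 1, 791 of 14950 (5.29%) without WT replicate 2 and 13 of 15109 without WT replicate 3. At an unadjusted p under 0.05 there were 2 to 3 of the 10. No share of all genes was taken at that threshold in these fits, so nothing is read from this count. Nos3 came closest without WT replicate 2 (adjusted p = 0.0763, quasi-likelihood test). Gch1 was then at 0.0781 by the same test, in the fit that called the 5.29% of all genes.

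Signs turned for genes near 0: Ddah1 under limma-voom (0.0085) and the block (0.012), Nosip under DESeq2 (-0.024), RLE (-0.019), total-count scaling (-0.19), scaling without mitochondrial genes (-0.014) and scaling to endothelial markers (-0.20), and Gucy1b1 under the same settings (-0.029, -0.024, -0.22, -0.018 and -0.28). Leaving out a library gave -0.25 to 0.11 for Ddah1, -0.19 to 0.023 for Cav1, -0.19 to 0.16 for Nosip and -0.26 to 0.33 for Gucy1b1. Relative to endothelial markers, leaving out a library gave -0.33 to 0.12 for Ddah1, -0.42 to 0.32 for Gucy1b1 and -0.35 to 0.19 for Nosip, highest without WT replicate 1. The Nos3 ratio kept its sign under every alternative, from -1.57 to -0.81, with -1.26 against Pecam1 and Cdh5 alone.

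Correlations of same-numbered deviations were -0.08, 0.22 and 0.01, against -0.18 to 0.19 for libraries with different numbers. With 3 libraries per group, these values cannot settle whether the replicate numbers pair the samples. With a replicate block, 0 genes were called, Nos3 was at -0.93 (adjusted p = 0.311) and its ratio to the markers at -1.10. Nos1, and Nos2 in part, are limited by depth.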
